A study of Rattus norvegicus with 35 samples.

Results

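Faecal bacteria of rats given footshocks were compared with those of control rats in 17 amplicon libraries, 8 labelled Shocked and 9 labelled Control, out of 35 libraries in the study. The faecal libraries were taken by their tissue and treatment labels, and the remaining 18 libraries came from colon. Each library counts reads of part of the bacterial gene for 16S ribosomal RNA, its V3-V4 stretch, amplified from total DNA of Rattus norvegicus faeces. Control libraries carried the numbers 1 to 8 and 10, and shocked libraries the numbers 11 to 18. The labels give no strain, age, sex or housing of the rats, nor the strength and timing of the shocks. The labels number the libraries without saying that each is a separate rat, so each p-value here reflects the spread among libraries, part of which may be technical.

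Footshock is a stress procedure in rodents that is used to model post-traumatic stress disorder, and the study asked whether it suits research on interactions between gut and brain. The 16S gene is carried by every bacterium, and its variable stretches differ between bacterial lineages, so reads with the same or a similar sequence are grouped as a feature that stands in for a kind of bacterium. The labels do not say how alike the reads of a feature are here. Faeces mostly carry the bacteria of the gut contents. A read share is relative, so a share can fall because another feature grew, and a bacterium with several copies of the gene can appear as several features. The table identifies a feature by a code of 32 characters and pairs it with no bacterial name or sequence, so features are named here by their rank of mean share over the 17 faecal libraries.

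The 17 libraries held 4703 to 24251 reads, with a median of 9442 in control and 11348 in shocked faeces, and the means of 9934 and 13214 differed by less than the spread of either group (two-sided exact permutation test, p = 0.244). A feature with 3 reads, the floor used for absent features, made up on average 0.0353% of a control library and 0.0278% of a shocked library. The table held 846 features with faecal reads, of which 489 were read in 1 faecal library and 4 in all 17. Control 1 stood apart from the other 16. Its Bray-Curtis distance, which runs from 0 for the same composition to 1 for no shared reads, averaged 0.955 to the other faecal libraries and was never below 0.927. Features that no other faecal library contained took 43.3% of its reads (95% exact binomial interval 42.1% to 44.5%, counting error only), and its leading feature, of faecal rank 12, took 23.0% of its reads and at most 0.0105% of any other faecal library. It had no reads of 125 of the 135 features tested below. Many group results are also given without it, though not all that it moved.

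Few faecal features passed a test between shocked and control faeces, and the 2 groups overlapped for every feature tested. Of 135 features that were read in at least 25% of the faecal libraries, 2 fell in shocked faeces and 0 rose, or 1.48% of those tested (edgeR's quasi-likelihood F test at a Benjamini-Hochberg adjusted p under 0.05). Both were minor members of the control community, read in 6 and 5 of the 9 control libraries and in none of the 8 shocked ones, so they passed the filter on detection through the control libraries alone. Features read in shocked faeces alone were each in at most 3 libraries, too few for the filter. None of them was tested, so the count of 2 against 0 does not compare the directions among features of 1 group. On simulated counts, false calls were a larger share of this test's calls than the threshold is meant to allow. At an unadjusted p under 0.05 there were 6 features (4.44%), 4 of them (2.96% of those tested) with a higher and 2 with a lower fitted level in shocked faeces.

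The first of the 2, feature 141ddb34f78140905a869674af245c1b of faecal rank 71, was read in 6 of 9 control libraries. Its share was 0.794% in control 2, 0.392% in control 3, 0.843% in control 5, 0.698% in control 6, 0.284% in control 7 and 0.964% in control 8, and it had no reads in controls 1, 4 and 10. Where it was read it had at least 21 reads, well clear of the smallest count in the table, which is 2. It had 0 reads in each of the 8 shocked libraries. The control mean was 0.442% ± 0.393 (SD, n = 9), at least 15.9-fold above the mean floor of the shocked libraries (edgeR adjusted p = 0.0334). The groups overlapped at 0, since 3 controls also lacked the feature.

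The other, feature 2a45bceb7b5b7b43c02fb8b32cb55a09 of faecal rank 77, was read in 5 of 9 control libraries. It made up 0.685% of control 3, 0.342% of control 5, 0.216% of control 6, 0.840% of control 7 and 1.44% of control 8. It had no reads in the other 4 controls or in any of the 8 shocked libraries. The control mean was 0.392% ± 0.504 (SD, n = 9), at least 14.1-fold above the mean shocked floor (edgeR adjusted p = 0.0369). All 5 controls that held this feature also held the feature of rank 71, and 3 controls held neither, so the 2 features were largely read in the same libraries.

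Both features were also read in control colon. The feature of rank 71 averaged 0.337% ± 0.557 of control colon reads (SD, n = 10), where 5 of 10 libraries held it. None of the 8 shocked colon libraries held it (colon fit, edgeR adjusted p = 0.0292). That of rank 77 averaged 0.649% ± 0.510 of control colon reads (SD, n = 10), where 7 of 10 libraries held it, and among shocked colon libraries it was read in number 11 alone, at 1.43% (colon fit, edgeR adjusted p = 0.676). Colon libraries were shallower, with 448 to 9418 reads in the shocked ones, which limits what an absence there shows. In the colon fit too, the feature of rank 71 passed the filter on detection through control libraries alone. For each feature, 3 library numbers held it in both control faeces and control colon.

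Both calls lie near the threshold. With the same 135 features, the call at rank 71 held when 9 of the 17 libraries were left out one at a time and was lost for 8 (edgeR adjusted p 0.0200 to 0.0652), and that at rank 77 held for 6 and was lost for 11 (0.0222 to 0.0808). The count was 0 without control 3 or 8 or shocked 12, 14, 15, 16, 17 or 18, it was 1 without control 1, control 7 or shocked 13, and it was 3 without shocked 11. An exact permutation test of mean shares called 0 of 135 after adjustment, with 12 (8.89%) at an unadjusted p under 0.05, and Fisher's exact test of detection called 0, with 7 (5.19%) unadjusted.

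**Figure D1:**
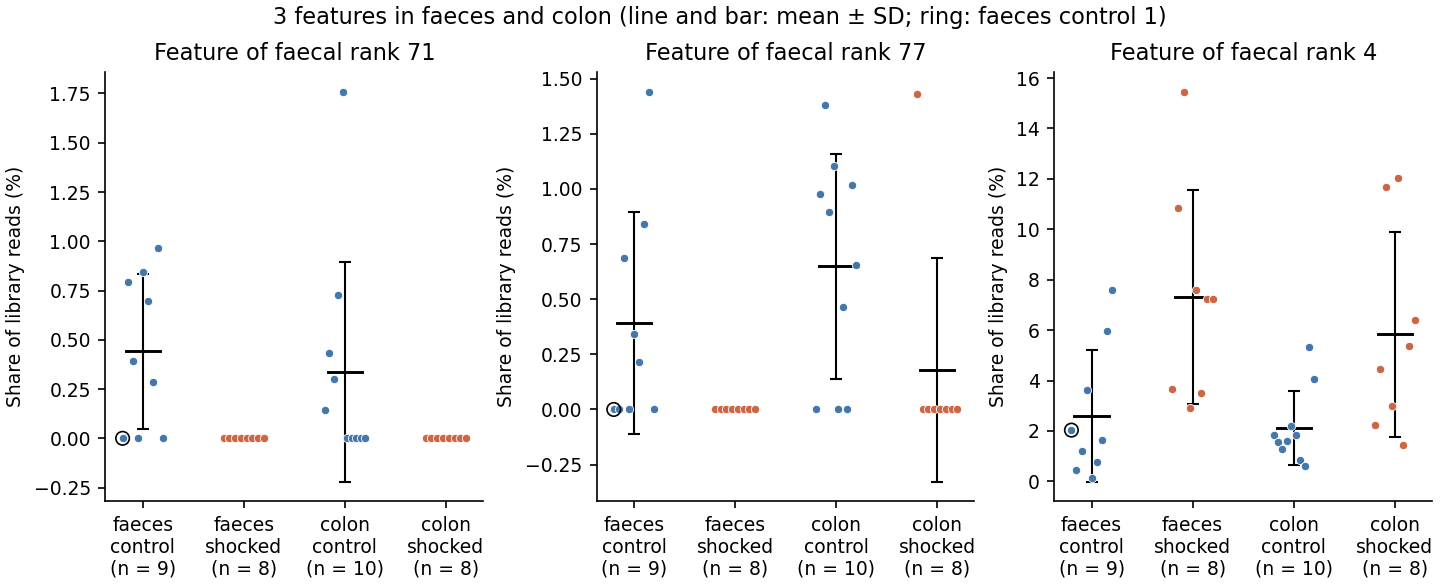
Shares of library reads (y axis, %) of the features of faecal rank 71, 77 and 4 in the libraries of control faeces (n = 9), shocked faeces (n = 8), control colon (n = 10) and shocked colon (n = 8); points are libraries, the line and bar give the mean ± SD, and a ring marks faeces control 1. The features of rank 71 and 77 are at 0 in all 8 shocked faecal libraries, while all 8 of those lie above the control median for the feature of rank 4.

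Features read in 1 group alone were mostly those of 1 library. Of the 846 faecal features, 273 were read in both groups, 289 in controls alone and 284 in shocked faeces alone. Of these, 251 and 238 were read in 1 library each. In 3 or more libraries of 1 group and none of the other there were 7 control features and 10 shocked features. The 7 control features averaged 0.0198% to 0.442% of control reads, and all 7 were also read in control colon. The 10 shocked features were each read in 3 of 8 libraries and averaged 0.0268% to 0.125% of shocked reads, and 5 of the 10 had no reads in any colon library. That is close to the share over all 846 faecal features, of which 475 (56.1%) had no colon reads and 371 (43.9%) had some. Of the 846, however, 489 were read in 1 faecal library, so they are no like baseline for features of 3 or more libraries. Neither the 7 of 7 nor the 5 of 10 was compared with features read as widely. The most widespread features of 1 group alone were thus those of rank 71 and 77 in controls, whereas no feature was read in more than 3 shocked libraries and no control.

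Detection was also uneven between the groups among shared and tested features. The 8 shocked libraries had 33 features in common, which together made up 57.9% ± 5.33 of their reads (SD, n = 8), and the 9 control libraries had 4, those of all 17 libraries. Without control 1 the other 8 controls had 26 features in common, of which 23 were also in every shocked library. Of the 135 tested features, 100 were read in a larger fraction of shocked than of control libraries, 31 in a smaller fraction and 4 in the same. Without control 1 these numbers were 66, 30 and 39, and at an equal depth of 4500 reads without control 1 they were 63, 32 and 40. The mean share was higher in shocked faeces for 89 of the 135 (84 without control 1), and the median fitted log2 fold change over all 135 was 0.31. Part of the imbalance in detection thus went with control 1, and what accounts for the rest was not tested.

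**Figure D2:**
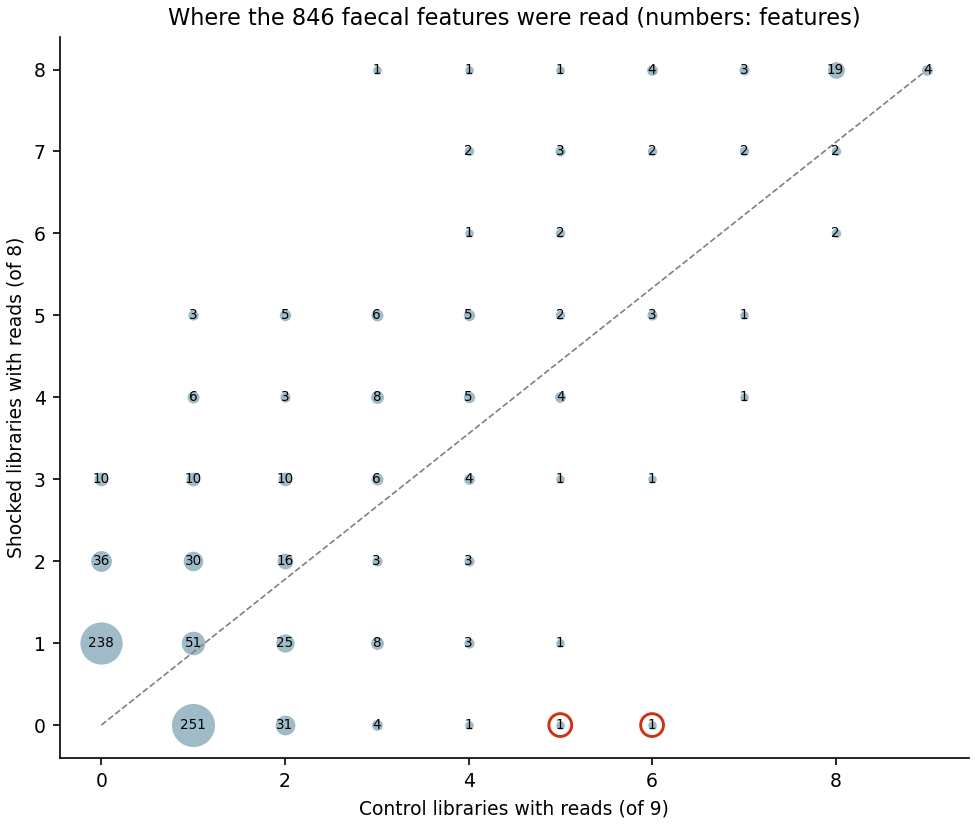
Number of control libraries (x axis, of 9) and shocked libraries (y axis, of 8) in which each of the 846 faecal features was read; each circle gives the number of features at that position, the dashed line marks equal fractions of both groups, and red rings mark the 2 features that fell in shocked faeces. Most features lie at 1 library of 1 group, 251 in controls and 238 in shocked faeces, and the ringed features lie farthest along the control axis among features with no shocked reads.

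The 10 most abundant faecal features made up 43.4% ± 17.3 of control reads (SD, n = 9) and 40.1% ± 7.68 of shocked reads (SD, n = 8), and none of the 10 passed the edgeR test. They made up 2.70% of control 1, and without it the control mean was 48.5% ± 8.71 (SD, n = 8), which turned a difference of -3.30 percentage points into one of -8.39. Of the 10, 3 had a higher mean share in shocked faeces, those of rank 3, 4 and 8, and 7 had a lower one. For rank 3 that order turned without control 1 (control mean 5.19%). The feature of rank 1 led 6 of the 9 control libraries and 3 of the 8 shocked libraries, where leading means the largest share of a library.

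Its share ran from 0 in control 1, over a control median of 8.75%, to 22.3% in control 7. In shocked faeces it ran from 1.0% in shocked 13, over a median of 6.98%, to 13.8% in shocked 12. The means were 11.1% ± 6.62 in control (SD, n = 9) and 6.93% ± 3.87 in shocked faeces (n = 8), a difference of -4.17 percentage points with a 95% interval of -9.84 to 1.49 by inverting the exact permutation test (p = 0.140; edgeR adjusted p = 0.983). Without control 1, the control mean was 12.5% and the unadjusted exact p was 0.0329. The groups overlapped, and 2 shocked libraries lay above the control median.

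Among the 10, the smallest p was at rank 4, feature f80166d86a7f15b69b6ac97505299c3a, one of the 4 features read in all 17 libraries. Its share ran from 0.135% in control 5, over a control median of 1.63%, to 7.61% in control 10. In shocked faeces it ran from 2.90% in shocked 14, over a median of 7.25%, to 15.5% in shocked 13. All 8 shocked libraries lay above the control median, 2 lay above the highest control, and the groups overlapped. The means were 2.60% ± 2.61 (SD, n = 9) and 7.31% ± 4.25 (SD, n = 8), a difference of 4.71 percentage points with a 95% interval of 1.16 to 8.32. The unadjusted exact permutation p was 0.0128 (0.0202 without control 1) and the p adjusted over 135 features was 0.468. The edgeR log2 fold change was 1.60 (adjusted p = 0.837), so the feature did not pass the test. In colon, where the feature was also read in every library, it averaged 2.12% ± 1.46 in control (SD, n = 10) and 5.83% ± 4.06 in shocked libraries (SD, n = 8), with a log2 fold change of 0.97 (edgeR adjusted p = 0.676).

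The features of rank 5 and 6 varied widely within both groups. That of rank 5 ran from 0.167% to 14.3% in control (median 2.29%) and from 0.266% to 14.4% in shocked faeces (median 1.31%). Shocked 15 held that highest share, and the other 7 shocked libraries held at most 5.12%. That of rank 6 averaged 4.70% ± 3.41 in control (SD, n = 9) and 2.92% ± 2.41 in shocked faeces (n = 8), a difference of -1.78 percentage points with an interval of -4.90 to 1.27. Without control 1 that difference was -2.31. Both groups overlapped over most of their range for these features.

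For other abundant features the means lay closer together. At rank 2 they were 7.12% ± 4.66 in control (SD, n = 9) and 6.62% ± 1.73 in shocked faeces (n = 8), with an interval of the difference from -4.19 to 3.03 percentage points, and the difference of -0.494 became -1.38 without control 1. At rank 10 they were 1.78% ± 0.925 (SD, n = 9) and 1.73% ± 0.679 (SD, n = 8), with an interval of -0.875 to 0.819, and the difference of -0.0419 became -0.264 without control 1. Differences within those intervals could not be told from none with these libraries. At rank 8 the share was at most 2.88% in control and reached 6.195% in shocked 17, and all 8 shocked libraries lay above the control median of 1.38% (means 1.63% and 2.51%, exact permutation p = 0.186).

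**Figure D3:**
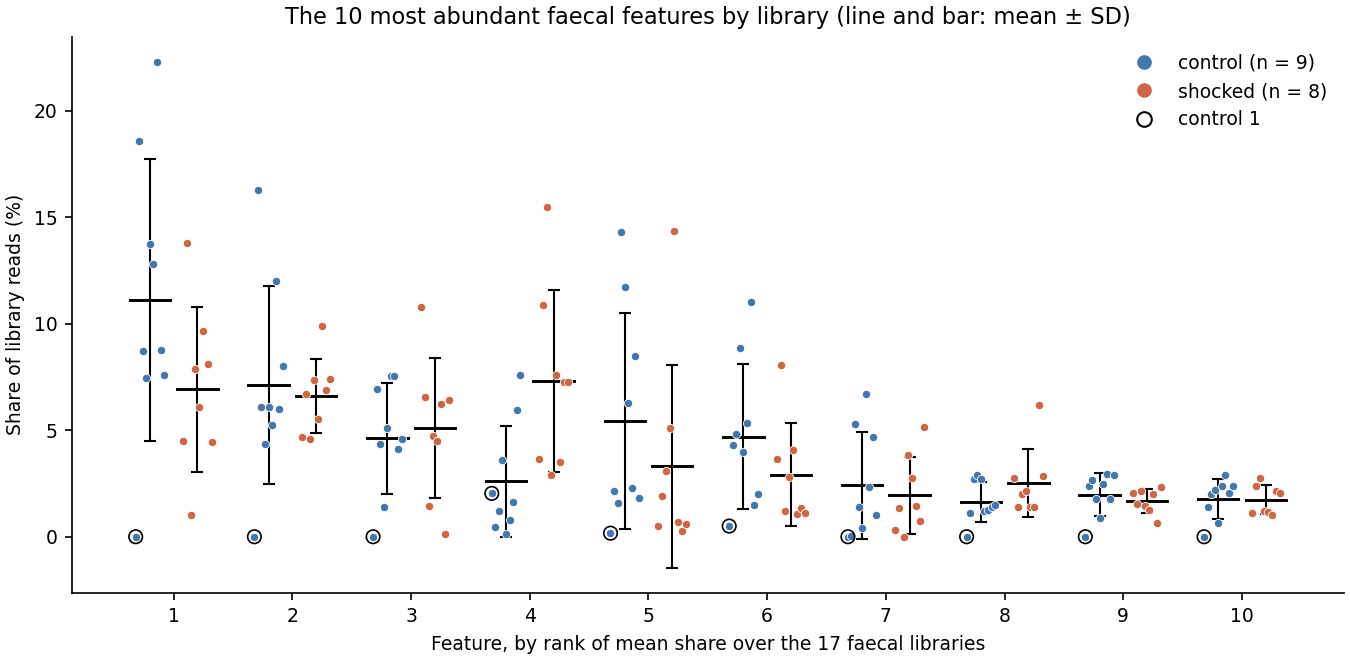
Share of library reads (y axis, %) of the 10 most abundant features of the 17 faecal libraries (x axis, rank by mean share), in control (blue, n = 9) and shocked libraries (orange, n = 8); points are libraries, the line and bar give the mean ± SD, and a ring marks control 1. The groups overlap for every feature; the feature of rank 4 averages 2.60% in control and 7.31% in shocked faeces, and that of rank 1 averages 11.1% and 6.93%.

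The features next in the order of the edgeR p were scarce. Besides rank 4, the 4 with a higher fitted level in shocked faeces were those of rank 155, 139, 294 and 169, with log2 fold changes of 4.37, 4.37, 3.47 and 2.89 and adjusted p of 0.837, 0.837, 0.842 and 0.983. Those of rank 155, 139 and 294 were read in 4 of 8 shocked libraries and in 1 of 9 controls, in each case control 3, the deepest control library. Their shocked means were 0.157%, 0.178% and 0.0502%, and their shares in control 3 were 0.0471%, 0.0523% and 0.0262%, which is below the floor of 0.0638% in the shallowest control library. Without control 3 their log2 fold changes were 7.25, 7.49 and 5.62 (edgeR adjusted p of 0.0854, 0.0854 and 0.0938). That of rank 169 was read in 5 of 8 shocked libraries and in control 6, without which its log2 fold change was 6.78 (edgeR adjusted p = 0.0989). The folds without control 3 or 6 are against controls with no reads and depend on the count that edgeR adds, so they are no measure of size. The lower adjusted p in those fits came from leaving out the only control that held the feature, so it is no support for a difference.

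The 5 with a lower fitted level were those of rank 66, 160, 35, 91 and 6, none of which passed the test (edgeR adjusted p = 0.983 for each). That of rank 66 was read in 4 of 9 controls, at up to 1.45%, and in 1 of 8 shocked libraries, shocked 11, at 0.282%. Without shocked 11, the only shocked library that held it, it passed the test (log2 fold change -8.73, edgeR adjusted p = 0.0403). That pass came from leaving out the shocked library that went against it, so it is no support for a difference. The fold is then against shocked libraries with no reads and depends on the count that edgeR adds. In colon, 5 of 10 control libraries and none of the 8 shocked ones held the feature of rank 66 (colon fit, edgeR adjusted p = 0.0292). It passed the filter on detection in colon through control libraries alone. The shocked colon libraries were shallow, so that p is no support for a difference in faeces. For the feature of rank 35, control 1 held 8.94% and every other faecal library at most 0.570%, and the fitted log2 fold change was -2.07 with control 1 and 1.02 without it.

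Exact permutation of mean shares put 10 of the 135 features higher (7.41%) and 2 lower (1.48%) in shocked faeces at an unadjusted p under 0.05, and none passed after adjustment. The 2 were those of rank 71 and 77. Among the 10, besides rank 4, the features of rank 23 and 36 were of middling abundance. That of rank 36 was read in all 8 shocked libraries and in 4 of 9 controls, and averaged 1.07% in shocked and 0.272% in control faeces (exact permutation p = 0.0201, adjusted p = 0.468). That of rank 23 averaged 1.32% and 0.407% (exact permutation p = 0.0199, adjusted p = 0.468). Without control 1 the numbers were 7 higher (5.19%) and 3 lower (2.22%), and none passed after adjustment.

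Shocked libraries were on average more diverse and less dominated by a few features, but none of the 10 community measures passed once p was adjusted over them. At 4500 reads, the Shannon index, a diversity measure that grows as a library holds more features in more even shares, ran from 3.24 to 4.37 in control (median 3.89) and from 3.70 to 4.19 in shocked faeces (median 4.09). The means were 3.74 ± 0.367 (SD, n = 9) and 4.04 ± 0.163 (SD, n = 8), a difference of 0.301 with a 95% interval of 0.00152 to 0.597 (p = 0.0484 by two-sided exact permutation, 0.279 after adjustment). The highest and the lowest libraries were both controls, numbers 3 and 7. Without control 1 the difference was 0.239 (exact p = 0.0914, adjusted p = 0.362), and without control 3 it was 0.380 (exact p = 0.00606, adjusted p = 0.0606).

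Control libraries held 72.9 to 213.1 features at 4500 reads (median 113.0) and shocked libraries 119.4 to 196.2 (median 144.7). The means were 124.7 ± 43.4 (SD, n = 9) and 148.4 ± 25.04 (SD, n = 8), a difference of 23.7 with an interval of -13.9 to 59.6 (exact permutation p = 0.197, adjusted p = 0.329). That difference became 17.2 without control 1 (exact permutation p = 0.332). The inverse Simpson index, which weighs abundant features most, averaged 22.4 ± 9.34 in control (SD, n = 9) and 29.4 ± 6.63 in shocked libraries (n = 8), with p = 0.101 by exact permutation and 0.297 after adjustment. Its difference of 6.95 became 5.65 without control 1 (exact permutation p = 0.176). Pielou evenness, which is 1 when all features are equally common, averaged 0.782 and 0.810 (exact permutation p = 0.145, adjusted p = 0.297).

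The 10 leading features of each library took 54.4% ± 8.38 of control reads (SD, n = 9) and 47.2% ± 5.16 of shocked reads (SD, n = 8), a difference of -7.11 percentage points with an interval of -14.4 to 0.181 (exact permutation p = 0.0558, adjusted p = 0.279). That difference became -5.89 without control 1 (exact permutation p = 0.104, adjusted p = 0.362). The single leading feature took 14.5% ± 5.72 and 10.96% ± 3.20 (exact permutation p = 0.149, adjusted p = 0.297). Its difference of -3.51 percentage points became -2.43 without control 1. Controls 1, 2 and 7 held the highest shares of leading features, at 64.2%, 61.3% and 67.1% for the 10. Rare features, with a mean faecal share under 0.1%, took 12.3% ± 5.56 of control reads (SD, n = 9) and 12.8% ± 3.33 of shocked reads (SD, n = 8; exact permutation p = 0.806), and the difference of 0.562 percentage points became 1.89 without control 1.

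Features also read in colon took 91.1% ± 12.7 of control reads (SD, n = 9) and 93.3% ± 4.11 of shocked reads (SD, n = 8; exact permutation p = 0.890). Those of no other faecal library took 8.03% ± 13.4 (SD, n = 9) and 4.68% ± 5.33 (SD, n = 8; exact permutation p = 0.637). The 4 features of all 17 libraries took 13.7% ± 6.68 (SD, n = 9) and 14.4% ± 7.45 (SD, n = 8; exact permutation p = 0.852). For these 3 measures the direction turned without control 1. The same 4 features then differed by -0.508 percentage points.

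**Figure D4:**
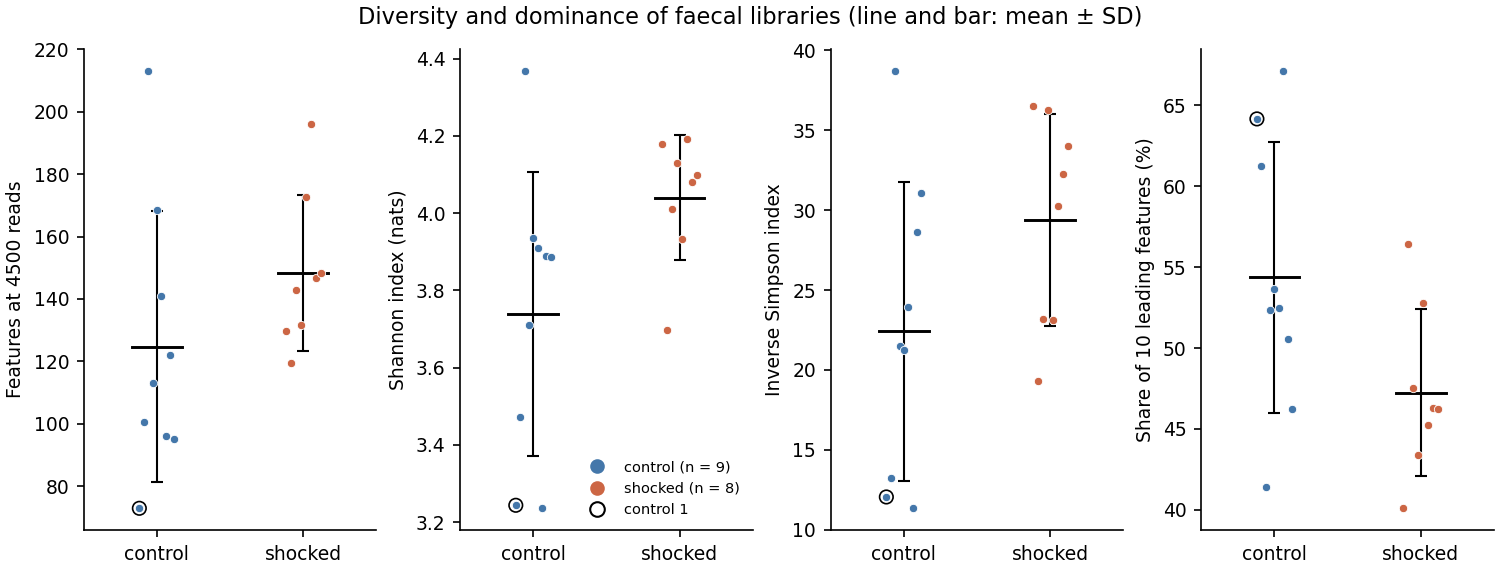
Features at 4500 reads, Shannon index (in nats), inverse Simpson index and share of the 10 leading features of each library (%), on the y axes of the 4 panels, in control (blue, n = 9) and shocked (orange, n = 8) faecal libraries; points are libraries, the line and bar give the mean ± SD, and a ring marks control 1. The groups overlap in each panel; the Shannon index averages 3.74 in control and 4.04 in shocked faeces.

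Whole composition by Bray-Curtis distance did not pass the threshold with all 17 libraries. Among other distances, permutational analysis of variance gave p = 0.0379 for Aitchison distance, which uses centred log-ratios, 0.0667 for Hellinger distance and 0.146 for Jaccard distance on presence. These p-values were not adjusted over the distances. Aitchison distance was computed at full depth with 0.5 read added, over all 846 features, of which 489 were read in 1 library. The share of Bray-Curtis variation between the groups was 7.89% (permutational analysis of variance, p = 0.0914). It was 9.91% without control 1 (p = 0.0426), 8.97% without control 4 (p = 0.0496) and 9.20% without control 10 (p = 0.0376), and leaving out any other library gave a p above 0.05. Without control 1 the mean distance was 0.497 ± 0.0535 between controls (SD over 28 pairs), 0.506 ± 0.0756 between shocked libraries (SD over 28 pairs) and 0.518 ± 0.0702 between a control and a shocked library (SD over 64 pairs). The distance between groups exceeded that within them by less than the spread of pairs. Pairs share libraries, so that spread does not measure the error of a mean distance.

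With all libraries, 8 of 8 shocked libraries and 1 of 9 controls were on average closer to their own group than to the other, but control 1 enters every mean distance to controls. Without it the count was 3 of 8 shocked libraries, numbers 13, 17 and 18, and 6 of 8 controls, all but 4 and 10. The nearest library was of the same group for 5 of 8 shocked libraries and 3 of 9 controls. The smallest distance was that of shocked 17 and 18, at 0.351. Control 7 was as close to shocked 12, at 0.376, as to control 2, at 0.377. The distance of libraries to their group centre averaged 0.391 in control and 0.333 in shocked faeces (permutation test, p = 0.527), and 0.329 and 0.333 without control 1 (p = 0.893).

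**Figure D5:**
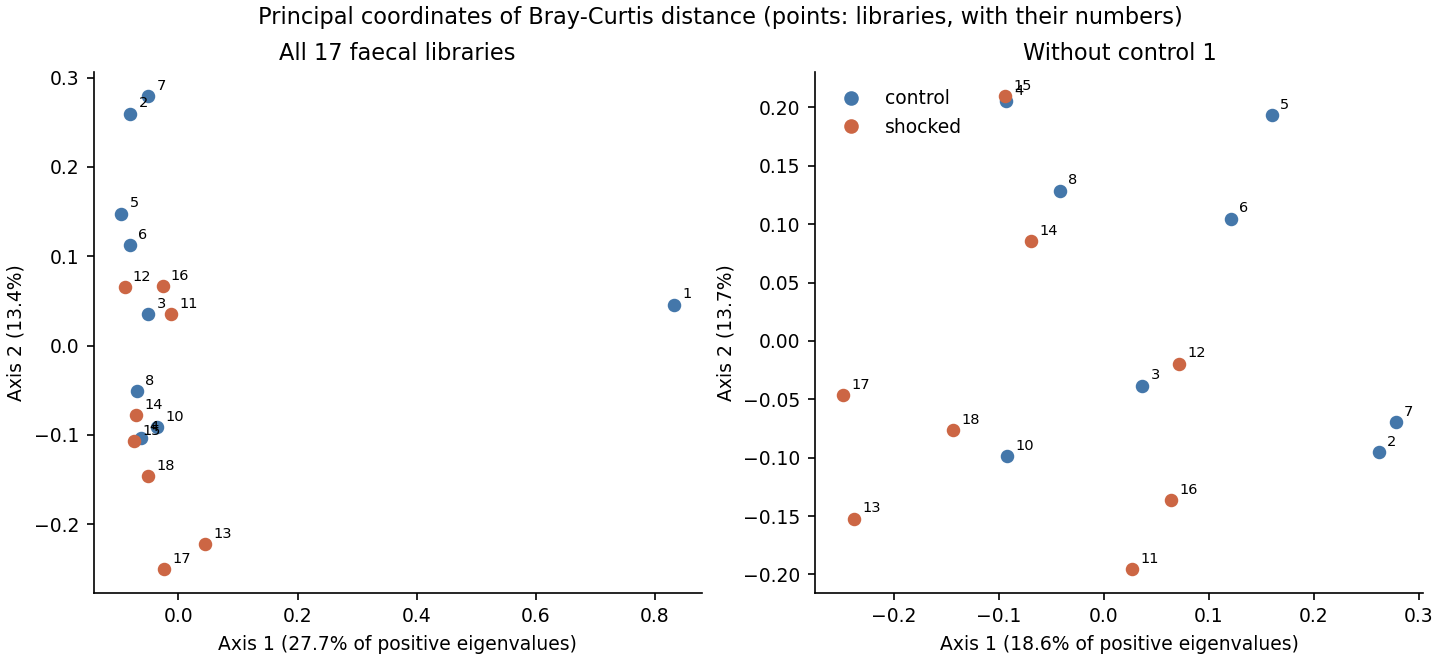
Principal coordinates of Bray-Curtis distance among the 17 faecal libraries (left) and without control 1 (right), with controls in blue and shocked libraries in orange and library numbers beside the points; the axes give the position on the first 2 coordinates, with their share of the positive eigenvalues. Control 1 alone lies at the far end of the first axis on the left, and on the right shocked 13, 17 and 18 lie at the low end of the first axis and controls 2 and 7 at the high end, with the other libraries of both groups mixed between them.

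The faecal difference was set against that in colon with an interaction term over all 35 libraries. Of 127 features tested, edgeR called 0 with a different response in the 2 compartments, where 13 (10.2%) had an unadjusted p under 0.05, and DESeq2 called 2, those of rank 51 and 94 (edgeR adjusted p of 0.970 and 0.508). Between faeces and colon the log2 responses differed by -5.59 for the feature of rank 77 (edgeR p = 0.00435, adjusted p = 0.221), -0.62 for that of rank 71, 0.86 for that of rank 4 and 0.52 for that of rank 1 (unadjusted p of 0.9997, 0.344 and 0.596). For rank 77, shocked faeces had no reads and 1 shocked colon library held it, and for rank 71 neither shocked group had reads. Those 2 values depend on the count that edgeR adds and are no measure of size. No response of these 4 features differed between the 2 compartments past the threshold after adjustment in edgeR.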

How the data were processed

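Total DNA was amplified with primers 341F and 805R and read on an Illumina MiSeq, per the labels. The authors deposited 1 table of whole-number counts of reads, not normalized, with features in rows and libraries in columns; its header names a biom file as the origin. Cutadapt, a primer trimmer, was used per the submitters' processing notes. No label or header names the feature caller or the read filters. The lowest count above 0 is 2.

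Members and choices were made with earlier results of these data known. Features read in at least 25% of faecal libraries were tested with edgeR 4.0.16 (quasi-likelihood F test, TMM, R 4.3.3), and an interaction was fitted over all 35 libraries. Libraries were left out in turn with the tested features held fixed. Community measures were compared by two-sided exact permutation over 24310 splits, and diversity was computed at 4500 reads (mean of 100 draws). Composition used adonis2 in vegan 2.7.1 on Bray-Curtis distances. Alternatives were DESeq2 1.42.0 (poscounts), limma 3.58.1 on centred log-ratios (0.5 read added), other normalizations, filters, depths, tests and distances. Intervals are 95%. Floors are 3 reads per library. Floors and binomial intervals cover counting error only.

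Named features were those called, the 10 most abundant, and the 5 next by p in each direction. Other features named were chosen after their values were seen. No pair of same-group faecal libraries agreed within sampling noise (64 pairs, lowest chi-square per degree of freedom 29.3). The edgeR and permutation scripts were tested on simulated data.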

Additional observations from a re-analysis of the deposited data

Results flagged for a closer look

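Each measure and named feature was searched within each group for a library far from the rest, in 62 combinations, of which 17 had one. A chance rate of about 1 in 20 groups does not carry over to features read in few libraries. There, a single library with reads is flagged whatever its share, so the 17 are not a count above chance. Control 1 stood out in 4. Features of no other faecal library took 43.3% of its reads (next highest control 8.26%), features also read in colon took 58.0% (next lowest 90.3%), its mean Bray-Curtis distance to its group was 0.961 (next highest 0.578), and the feature of rank 35 took 8.94% (next highest 0.570%). In shocked 13, features of no other faecal library took 17.7% of reads (95% exact binomial interval 16.97% to 18.50%), against at most 4.06% in the other shocked libraries.

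Among abundant features, shocked 15 held 14.4% of the feature of rank 5 (next highest 5.12%), shocked 12 held 8.08% of that of rank 6 (next 4.06%) and shocked 17 held 6.195% of that of rank 8 (next 2.83%). Shocked 14 held 0.717% of the feature of rank 139 (next 0.312%) and 0.436% of that of rank 169 (next 0.195%), and shocked 16 held 0.321% of that of rank 91 (next 0.0935%). In the remaining 6 cases the feature was read in a single library of the group. Control 3 held 0.0471% of the feature of rank 155, 0.0523% of that of rank 139 and 0.0262% of that of rank 294. Control 6 held 0.128% of that of rank 169, and shocked 11 held 0.282% of that of rank 66 and 0.183% of that of rank 160.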

How the results depend on the processing

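The same 2 features were called with TMMwsp, library totals alone, DESeq2, limma on centred log-ratios and thinning to 4500 reads, and 3 were called in 1 fit over all 4 groups. The count was 0 with a filter at 50% of libraries (edgeR, 1 of 66 at an unadjusted p under 0.05), by exact permutation of mean shares and by Fisher's exact test, and 0 to 3 with 1 library left out. With no filter it was 475 of 846 features, of which 472 were read in under 25% of the libraries and 389 in 1 library alone. For the interaction, 0 of 127 were called with the library number as a replicate block in edgeR (2 unadjusted) and 2 by DESeq2. Control and shocked faeces share no numbers, so no paired analysis of the faecal comparison was possible because the labels pair no libraries within it.

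Some uncalled differences changed sign, and the cause was not tested. The log2 change was 0.32 for rank 2, -0.11 for rank 3, 0.089 for rank 10 and 0.95 for rank 35 by limma, 0.88 for rank 35 by DESeq2, and for rank 3 -0.024 with TMMwsp, -0.0011 with no filter and -0.015 with a filter at 50%. Detection was a fraction of 0.111 higher in shocked faeces for ranks 1, 2, 9 and 10, and 0.403 for rank 35. Mean shares without control 1, a setting chosen after seeing the data, differed by -0.0949 points for rank 3 and 0.113 for rank 35. With 1 library left out, log2 changes ran from -0.35 to 0.17 for rank 2, -0.14 to 0.28 for rank 3, -0.31 to 0.018 for rank 10 and -2.44 to 1.02 for rank 35. With each set of features redrawn without the library left out, shares differed by -6.28 to 2.35 points for features of every faecal library (a set of 23 features at the low end, without control 1), -7.27 to 0.978 for those of no other, -0.392 to 1.71 for rare ones and -1.90 to 3.47 for those also in colon. Treatment accounted for 7.04% to 9.91% of Bray-Curtis variation with 1 library left out, 7.64% of Aitchison variation (permutation p = 0.0379), 7.63% of Hellinger variation (p = 0.0667) and 6.90% of Jaccard variation (p = 0.146). Diversity differences kept their direction at 1000 reads and at full depth.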

Other observations

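The features of rank 23 and 36, singled out after their values were seen, were absent from nearly the same libraries. The feature of rank 36 had no reads in controls 1, 6, 7, 8 and 10, and that of rank 23 had none in controls 1, 6, 7 and 8 and in shocked 13. Control 2 held 1.18% and 1.03%, shocked 12 held 2.003% and 2.21%, and shocked 15 held 2.10% and 1.69%, for rank 36 and rank 23 respectively.

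Control 1 was also unlike colon, with a Bray-Curtis distance of 0.762 to its nearest colon library, colon control 10, and a mean of 0.925 over the 18 colon libraries. Of its 5 leading features, those of rank 12, 35, 41, 52 and 58, all but rank 12 were read in colon, in 8, 6, 2 and 6 libraries. Control 3 held traces of 3 features that control 1 shared with no further faecal library, 0.262% of its own reads against 32.2% of those of control 1.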
